A study of Mus musculus with 6 samples.

Results

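The genes of MHC class II presentation were described here in CD45+CD11b+ cells of the mouse pancreas. They were 10 genes listed by symbol: the transactivator Ciita, the classical chains H2-Aa, H2-Ab1 and H2-Eb1, the invariant chain Cd74, the peptide editor genes H2-DMa, H2-DMb1 and H2-DMb2, and the H2-O genes H2-Oa and H2-Ob. All 10 were found among the 21780 genes of the count table through the GENCODE vM21 annotation, and all 10 were among the 14429 genes tested. The cells came from C57BL/6 mice of 6 to 8 weeks, given PBS or WGP (particles of whole β-glucan from the wall of *S. cerevisiae*) into the peritoneum, and were sorted as live CD45+CD11b+ cells at day 7. Each treatment had 3 libraries. The sources used here name both sexes without giving the sex behind a library. They describe each sample as a separate animal of a single experiment, so the p values measure the spread between animals within that experiment. Counts of Y-linked genes were high in PBS replicates 2 and 3 only, so these p values do not separate treatment from sex. Total counts lay between 35334645 and 40580936 in the PBS libraries and between 38240913 and 43341834 in the WGP libraries, and the lowest count of any of the 10 genes in any library was 773.

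MHC class II molecules are paired alpha and beta chains that present peptides from endosomes to CD4+ T cells. The chains are assembled on the invariant chain, a fragment of which stays in the groove until H2-DM exchanges it for peptide, and H2-O, known mainly from B cells, holds H2-DM back. Transcription of nearly all of these genes depends on CIITA, a coactivator without DNA binding of its own that docks on RFX, CREB and NF-Y at the X and Y boxes of class II promoters, and that interferon gamma induces in macrophages, in part through IRF1. C57BL/6 mice lack the I-E alpha chain, so the product of H2-Eb1 has no I-E partner at their cell surface.

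Ciita, the I-A chain genes H2-Ab1 and H2-Aa, and H2-DMa and H2-DMb1 rose in the WGP libraries, whereas H2-DMb2 and H2-Ob lay lower without passing the test. Differential expression was computed with edgeR's quasi-likelihood test, and a gene passed where the p value, adjusted over all genes after Benjamini and Hochberg, did not exceed 0.05. Ciita, H2-Ab1, H2-Aa, H2-DMa and H2-DMb1 passed, all 5 higher after WGP, against 7.54% of all genes tested that passed in that direction. In the lower direction 0 of the 10 passed in edgeR, against a background of 6.81%, with 2 (H2-DMb2 and H2-Ob) at an unadjusted p below 0.05, against 13.1% of all genes, and the same 2 past the adjusted p in the Wald test of DESeq2, against 9.43%. Where a log2 fold change of 1 or more in size was required as well, Ciita and H2-DMb1 were called higher, against 4.53% of all genes, and 0 were called lower by edgeR, against 4.96%. The groups did not overlap for 9 of the genes. In 7 of these the WGP libraries lay higher, against 16% of all genes, and in 2 they lay lower, against 16.1%. The median log2 fold change of the 10 genes was 0.61, beside -0.05 over all genes tested. RNA was measured in bulk, so a change in the number of cells carrying class II RNA and a change in RNA per cell cannot be told apart.

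**Figure D1:**
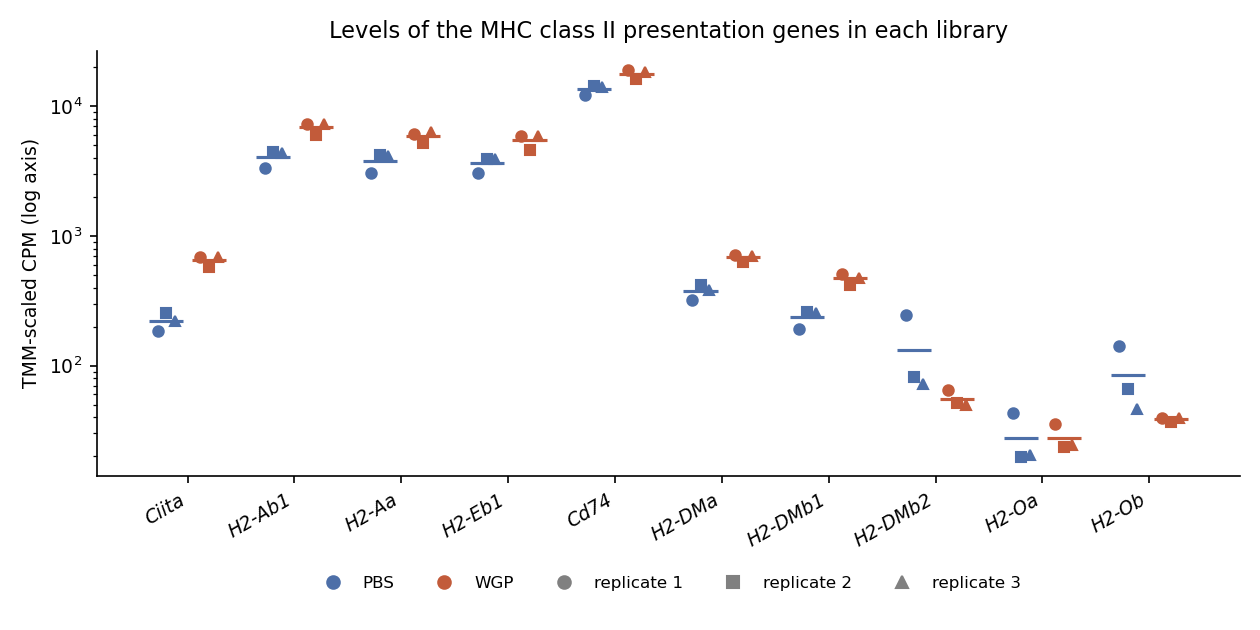
Levels of the 10 genes in each library, as TMM-scaled CPM on a log axis. Points are libraries, shapes mark the replicate and bars are the means of 3 libraries. The WGP libraries lie above the PBS libraries in 7 genes, below them in H2-DMb2 and H2-Ob, and among them in H2-Oa.

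Ciita, the master regulator of the family, showed the largest difference of the genes that passed. In CPM, the counts of a gene relative to the library's total after TMM scaling, it stood at 184, 255 and 220 CPM in the PBS libraries and at 692, 577 and 689 CPM in the WGP libraries. The lowest WGP library was thus above the highest PBS library. The log2 fold change was 1.57 (SE 0.17, adjusted p = 0.000171 from edgeR), and it passed in all 16 alternative fits, where it lay between 1.25 and 1.83. The gene (ENSMUSG00000022504) lies at chr16:10480059-10528418 of GRCm38, and the counts cover the whole gene, so that its alternative first exons were not told apart.

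The chains of I-A, the class II molecule that C57BL/6 mice display, rose together. H2-Ab1, the beta chain, stood at 3357, 4482 and 4364 CPM after PBS and at 7295, 6035 and 7346 CPM after WGP. H2-Aa, the alpha chain, stood at 3089, 4219 and 4163 CPM after PBS and at 6130, 5250 and 6337 CPM after WGP. In both chains every WGP library exceeded every PBS library. The log2 fold change was 0.76 for H2-Ab1 (SE 0.17, adjusted p = 0.0150 from edgeR) and 0.63 for H2-Aa (SE 0.18, adjusted p = 0.0389 from edgeR). These calls depended on single libraries and on the fit. The adjusted p of H2-Ab1 was 0.0533 without WGP replicate 1 and 0.0628 without WGP replicate 3, and that of H2-Aa was 0.0848 without PBS replicate 2, 0.109 without WGP replicate 1 and 0.133 without WGP replicate 3. H2-Aa also missed the threshold with library totals in place of TMM (adjusted p = 0.0555 from edgeR), and with a covariate for B cell markers H2-Ab1 had 0.38 (adjusted p = 0.303) and H2-Aa 0.21 (adjusted p = 0.608).

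H2-Eb1, the I-E beta chain, had almost the same pattern and lay at the threshold. Its levels were 3045, 3952 and 3895 CPM after PBS and 5924, 4607 and 5881 CPM after WGP, with no overlap. The log2 fold change was 0.59 (SE 0.18, adjusted p = 0.050002 from edgeR, which did not pass). Its adjusted p was 0.0424 without PBS replicate 1 and 0.0223 without WGP replicate 2, and the gene passed in 6 of 16 alternative fits. With the B cell marker covariate the log2 fold change was 0.22 (adjusted p = 0.628 from edgeR). Cd74, the invariant chain, is the most abundant of the 10 per length. It stood at 12325, 14457 and 14101 CPM after PBS and at 19054, 16227 and 18317 CPM after WGP. The groups did not overlap here either, but the log2 fold change of 0.39 (SE 0.16, 95% interval 0.07 to 0.71) had an adjusted p of 0.155 from edgeR.

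The genes of the peptide editor H2-DM split. H2-DMa, its alpha chain, stood at 319, 423 and 386 CPM after PBS and at 720, 633 and 702 CPM after WGP, a log2 fold change of 0.87 (SE 0.15, adjusted p = 0.00389 from edgeR). H2-DMb1, a beta chain, stood at 192, 261 and 253 CPM after PBS and at 513, 422 and 478 CPM after WGP, a log2 fold change of 1.00 (SE 0.16, adjusted p = 0.00236 from edgeR). Both rose with no overlap between the groups. The call of H2-DMb1 at an absolute log2 fold change of 1 rested on the margin, since the value was 0.99 with RLE size factors, 0.90 with library totals, and 0.87, 0.94 and 0.99 without PBS replicate 1, WGP replicate 1 or WGP replicate 3. Under the B cell marker covariate both lost the adjusted p, with log2 fold changes of 0.58 for H2-DMa (adjusted p = 0.141 from edgeR) and 0.63 for H2-DMb1 (adjusted p = 0.114). H2-DMb2, the other beta chain gene, stood at 245, 81.6 and 72.4 CPM after PBS and at 64.9, 52.0 and 49.9 CPM after WGP. Its WGP libraries were the lower ones, and PBS replicate 1 stood far above the other PBS libraries. The log2 fold change was -1.26 (SE 0.40, adjusted p = 0.0655 from edgeR). Without PBS replicate 1 it was -0.47 (adjusted p = 0.112 from edgeR), and without PBS replicate 3 the adjusted p was 0.0232. With the summed level of B cell markers as a covariate the value turned to 0.47 (adjusted p = 0.452 from edgeR). With a covariate for Y-linked counts it was -2.14.

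H2-DMb1 and H2-DMb2 are close copies, which limits how far their counts can be separated. Of the 1330 windows of 75 bases, the read length, along the exons of H2-DMb1, 254 (19.1%) were also found in H2-DMb2, where they made up 14.6% of 1741 windows. No such window was shared between any other pair among the 8 class II chain genes. A read from a shared window cannot be given to 1 of these genes by its sequence, so the values of both are uncertain to that extent.

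The H2-O genes, whose product restrains H2-DM, did not rise. H2-Ob, the beta chain, stood at 142, 66.6 and 46.3 CPM after PBS and at 39.8, 36.9 and 39.5 CPM after WGP. All WGP libraries lay below all PBS libraries, with a log2 fold change of -1.13 (SE 0.34, adjusted p = 0.0528 from edgeR). Without PBS replicate 1 the value was -0.55 (adjusted p = 0.108 from edgeR), and without PBS replicate 3 the adjusted p was 0.00918. With the B cell marker covariate the value turned to 0.28 (adjusted p = 0.695 from edgeR), and with the Y-linked covariate it was -1.87. H2-Oa, the alpha chain, stood at 43.5, 19.8 and 20.4 CPM after PBS and at 35.2, 23.6 and 24.2 CPM after WGP. Here the groups overlapped, and the log2 fold change of -0.01 (SE 0.33, 95% interval -0.66 to 0.63, adjusted p = 0.990 from edgeR) was 0.46 without PBS replicate 1.

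Levels between genes were compared per kilobase of the principal transcript, and their order depends on this length. It is 1128 bases for H2-Aa, 1212 for H2-Ab1 and 1669 for H2-Eb1. The union of all exons is 3798, 2568 and 1944 bases. With the unions H2-Eb1 would lie above both I-A chains after PBS. In the PBS libraries Cd74 led with 9665 ± 810 CPM per kb (SD, n = 3 here and for the other levels per kb), followed by H2-Aa with 3390 ± 565, H2-Ab1 with 3356 ± 511 and H2-Eb1 with 2175 ± 304 CPM per kb. The I-A chains did not differ beyond their spread, and the H2-DM genes lay far lower, with 227 ± 31.7 CPM per kb for H2-DMa, 168 ± 26.6 for H2-DMb1 and 93.3 ± 68.1 for H2-DMb2. H2-Ob (31.8 ± 18.8), H2-Oa (25.6 ± 12.4) and Ciita (23.0 ± 3.71 CPM per kb) closed the order and did not differ beyond their spread. In the WGP libraries the order at the top was Cd74 (12671 ± 1040), H2-Ab1 (5686 ± 613), H2-Aa (5235 ± 512) and H2-Eb1 (3278 ± 448 CPM per kb). Ciita, at 68.4 ± 6.89 CPM per kb, stood above H2-DMb2 (39.1 ± 5.70), H2-Oa (25.4 ± 6.01) and H2-Ob (14.5 ± 0.597).

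Ratios within a library do not depend on its scaling, and 8 of them were computed from counts per kb. For each ratio the groups did not overlap, and the exact two-sided permutation test gave 0.1, the smallest p that 3 against 3 libraries allow (0.1 after adjustment over the 8 ratios). H2-Aa per H2-Ab1 was close to 1 after PBS (0.989, 1.01 and 1.02) and lower after WGP (0.903, 0.935 and 0.927). The value near 1 depends on the lengths used, while the log2 difference of -0.13 was the same with exon unions. Cd74 per H2-Ab1 was 3.16, 2.77 and 2.78 after PBS and 2.25, 2.31 and 2.14 after WGP, a log2 difference of -0.38. Every WGP library thus held less Cd74 per H2-Ab1 than every PBS library. Ciita per H2-Ab1 was higher by 0.81 on the log2 scale after WGP, H2-Eb1 per H2-Ab1 differed by -0.17 and H2-DMa per H2-Ab1 by 0.11.

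The largest difference in a ratio was that between the H2-DM beta chain genes. H2-DMb2 per H2-DMb1 was 1.25, 0.308 and 0.282 after PBS and 0.125, 0.121 and 0.103 after WGP. PBS replicate 1 was the 1 library with more H2-DMb2 than H2-DMb1 RNA per kb. The log2 difference was -2.04, and -1.35 without PBS replicate 1. The H2-O genes per H2-DM genes stood at 0.186, 0.0867 and 0.0778 after PBS and at 0.0559, 0.0494 and 0.0465 after WGP, a log2 difference of -1.10, and of -0.70 without PBS replicate 1. Less H2-O RNA was thus measured per H2-DM RNA in every WGP library, although H2-Oa itself had a log2 fold change of -0.01. The cells that carried the H2-O RNA were not identified. H2-DMa per both beta chain genes was 0.623, 1.05 and 1.01 after PBS and 1.06, 1.13 and 1.13 after WGP. Its log2 difference of 0.34 was 0.10 without PBS replicate 1.

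**Figure D2:**
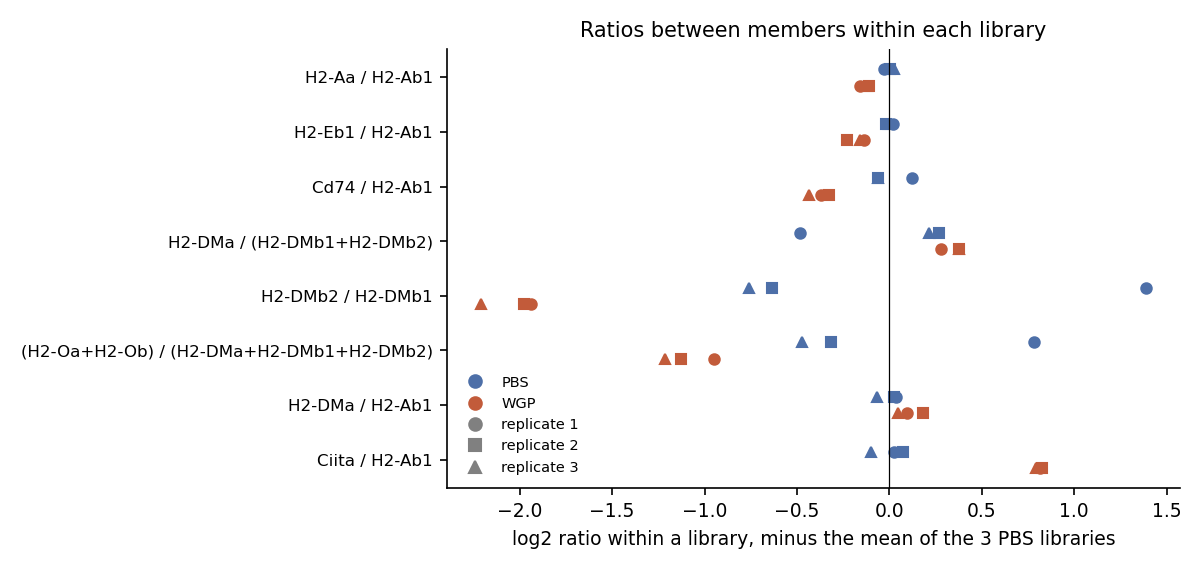
Ratios between the genes within each library, from counts per kb, on a log2 scale and relative to the mean of the 3 PBS libraries. Shapes mark the replicate. In H2-DMb2 per H2-DMb1 PBS replicate 1 stands alone to the right and the log2 difference is -2.04, while H2-Aa per H2-Ab1 varies little within a group.

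PBS replicate 1 was the lowest PBS library in the 7 genes that lay higher after WGP and the highest in H2-DMb2, H2-Oa and H2-Ob. It also carried the most B cell RNA. The 6 B cell markers Cd79a, Cd79b, Ms4a1, Pax5, Ebf1 and Cd22 summed to 2553 CPM in PBS replicate 1, to 660 and 396 CPM in the other PBS libraries and to between 129 and 227 CPM in the WGP libraries. None of the 6 was at 0 in any library, and 5 passed as lower after WGP, against 6.81% of all genes tested. The median log2 fold change of the 6 was -2.90, and without PBS replicate 1 their values lay between -2.25 and -0.52. Cd79a, a part of the B cell receptor, stood at 686, 167 and 92.6 CPM after PBS and at 37.7, 35.4 and 24.02 CPM after WGP. PBS replicate 1 also had 0 counts of the Y-linked genes Ddx3y, Eif2s3y, Kdm5d and Uty, as against 8972 and 10063 in the other PBS libraries and 0, 0 and 1 in the WGP libraries. Taken as a covariate, the B cell markers separate the groups themselves without overlap. Y-linked counts above 1 were found in PBS replicates 2 and 3 only, so sex goes largely with treatment for every gene tested. A fit with the Y-linked covariate compares the WGP libraries with PBS replicate 1 alone. The part of B cells in the values of H2-DMb2 and H2-Ob was not tested. The part of sex was not tested for any gene.

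**Figure D3:**
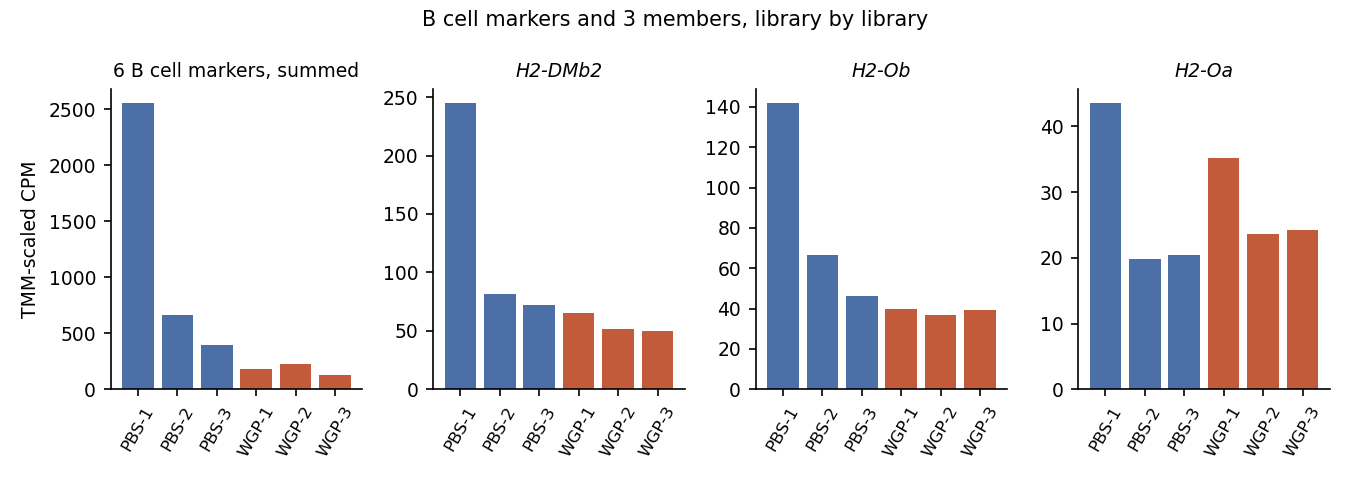
Summed level of 6 B cell markers beside H2-DMb2, H2-Ob and H2-Oa in each library, in TMM-scaled CPM. Bars are single libraries. PBS replicate 1 is the highest library in all 4 panels, with 2553 CPM for the summed markers.

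The gate and other cell types were checked in the same way, beside 7.54% of all genes tested that passed as higher and 6.81% as lower. Of the genes of the gate and of myeloid cells, Ptprc (CD45), Itgam (CD11b) and Lyz2 rose and Csf1r and Adgre1 did not pass, and their sum was 8595 to 14388 CPM after PBS and 20720 to 22025 CPM after WGP. Without PBS replicate 1 Csf1r (log2 fold change -0.58, adjusted p = 0.00625 from edgeR) and Adgre1 (-0.67, adjusted p = 0.00539) passed as lower. Lyz2, lysozyme, was the most abundant, with 4933 to 8230 CPM after PBS and 15657 to 16887 CPM after WGP. Of 8 markers of conventional dendritic cells, which carry much class II, Itgax passed as higher, Cd209a passed as lower and 6 did not pass, and the call of Itgax was lost when WGP replicate 1 or 3, or PBS replicate 2 or 3, was left out. Their sum was 381 to 398 CPM after PBS and 273 to 426 CPM after WGP, with the lowest value in WGP replicate 2, which was also the lowest WGP library in 9 of the 10 class II genes. Of 7 monocyte markers 3 rose and 1 fell (sum 2980 to 6455 CPM after PBS and 6402 to 7938 after WGP), and of 8 markers of resident macrophages, among them Mrc1, 7 fell (sum 3703 to 9739 CPM after PBS and 599 to 901 after WGP). The part of these cell types in the class II values was not tested. Neutrophil markers had 1 rise and 1 fall among 6, plasmacytoid dendritic cell markers 2 falls among 3, and acinar markers 4 falls among 4 tested. Of 4 NK cell markers 0 passed in edgeR, with Ncr1 at an unadjusted p of 0.0437, and 0 passed in DESeq2. Of 4 T cell markers tested Cd8a passed as higher, with 0 CPM in each PBS library and at most 2.94 CPM after WGP, a call lost without PBS replicate 2 or any of the WGP libraries.

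Outside the 10 genes, 5 of 7 genes of the interferon gamma receptor and its signal rose in the WGP libraries and 0 fell. These counts were the same in all 16 alternative fits. Of all genes tested 7.54% passed as higher and 6.81% as lower. Irf1, which acts on the interferon-inducible promoter of Ciita, had a log2 fold change of 2.30 (SE 0.24, adjusted p = 0.000153 from edgeR), from 209 ± 58.8 to 1029 ± 223 CPM (n = 3). The feedback inhibitor Socs1 rose by 3.69, the receptor chain Ifngr2 by 1.51, the kinase Jak2 by 1.496 and Irf2 by 0.96 on the log2 scale. Ifngr1, the ligand-binding chain (0.55, adjusted p = 0.126 from edgeR), and Jak1 (0.03, adjusted p = 0.924) did not pass.

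Of 14 genes listed for class II transcription, 4 rose and 1 fell, against 7.54% and 6.81% of all genes tested. The median log2 fold change of the list was 0.33. Rfx5, the subunit of RFX that binds the X box, rose by 0.75 (adjusted p = 0.0493), Spi1, which encodes PU.1, by 0.51, Irf8 by 0.96 and Prdm1, a repressor of Ciita in plasma cells, by 1.08 on the log2 scale. Irf4 fell, with 426, 199 and 173 CPM after PBS and 48.8, 25.8 and 41.2 CPM after WGP. Its log2 fold change was -2.78 (adjusted p = 0.00055 from edgeR), and -2.27 without PBS replicate 1. The 4 that rose became 1 when WGP replicate 1, or either of PBS replicates 2 and 3, was left out. The other 9 genes did not pass, among them Ep300 (0.33), Crebbp (-0.34) and the NF-Y subunit gene Nfya (0.34). The RFX subunit genes Rfxap (0.12) and Rfxank (0.004) did not pass either.

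The genes that prepare peptides and the invariant chain went both ways. Of 11 tested, 4 rose and 2 fell, against 7.54% and 6.81% of all genes tested, and the median log2 fold change was -0.01. Ctss, the cathepsin known for the last cut of the invariant chain, rose by 1.68 on the log2 scale (SE 0.19, adjusted p = 0.00024 from edgeR), from 1283 ± 176 to 4097 ± 739 CPM (n = 3). Ctsd, Ctsz and Ctsc, further lysosomal proteases, rose by 1.55, 1.16 and 0.67. Lgmn, the asparagine endopeptidase, decreased by 0.70, and Cst3, the cathepsin inhibitor cystatin C, by 0.90 on the log2 scale. The 2 that fell became 1 with any library left out except PBS replicate 1. Ctsb (-0.01), Hspa8 (-0.13) and Ctsh (0.24) did not pass.

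Of 16 tested genes of class II trafficking and turnover, 2 rose and 4 fell, against 7.54% and 6.81% of all genes tested. The median log2 fold change of the list was -0.30. The tetraspanin gene Cd82 rose by 0.73 and Sppl2a, the protease that clears the remaining end of the invariant chain from the membrane, by 0.86. The tetraspanin genes Cd81, Cd37 and Cd63 had log2 fold changes of -2.98, -1.504 and -0.77. The 2 that rose became 1 without PBS replicate 2 or WGP replicate 2, and the 4 that fell became 2 without WGP replicate 3. Cd83, whose product keeps class II at the cell surface by opposing the ubiquitin ligase MARCH1, had -1.06. Unc93b1 (0.17), Lamp1 (0.57), Rab7 (0.38) and the gene of that ligase, March1 (0.33, adjusted p = 0.323 from edgeR), did not pass.

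**Figure D4:**
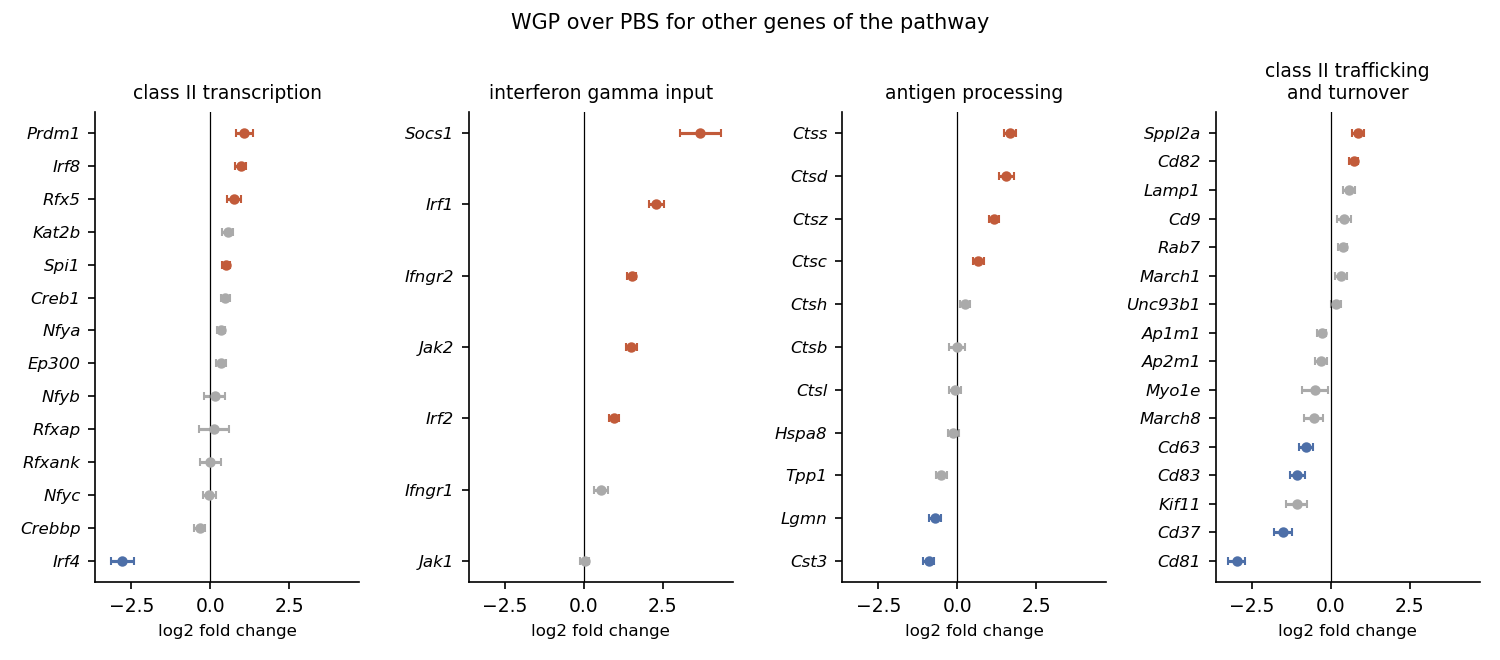
Log2 fold changes of WGP over PBS for other genes of the pathway, in 4 lists. Points are edgeR estimates, bars are 1 SE, red and blue mark genes that passed as higher and lower, and grey marks genes that did not pass. Of the 7 genes of interferon gamma input 5 are red, while the lists of processing and trafficking hold both colours.

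Of the 10 genes, 8 lie in the class II region of chromosome 17, in the order H2-Oa, H2-DMa, H2-DMb2, H2-DMb1, H2-Ob, H2-Ab1, H2-Aa and H2-Eb1, from chr17:34092340 (the start of H2-Oa) to chr17:34316674 (the end of H2-Eb1) of GRCm38. Genes that rose and genes that did not were interleaved along it. H2-DMb2 (chr17:34143307-34151555) ends before H2-DMb1 (chr17:34153072-34160230) begins, and the neighbours had log2 fold changes of -1.26, which did not pass and was -0.47 without PBS replicate 1, and 1.00. H2-Ob (chr17:34238903-34254414) and H2-Ab1 (chr17:34257689-34269419) are neighbours as well, with -1.13, which did not pass and was -0.55 without PBS replicate 1, and 0.76. Between H2-DMb1 and H2-Ob lie Psmb9, Tap1, Psmb8 and Tap2, genes of the class I pathway, which rose by 1.86, 2.21, 1.62 and 1.52 on the log2 scale. Each of these exceeded every class II chain gene of the region. Of 11 other genes tested from the region and its flanks, these 4 and the class I gene H2-K1 (1.22) rose, against 7.54% of all genes. H2-K1 lies before H2-Oa. Btnl2 (-2.19), which lies beyond H2-Eb1, fell, against 6.81% of all genes. The call of Btnl2 was lost when WGP replicate 3, or either of PBS replicates 2 and 3, was left out.

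**Figure D5:**
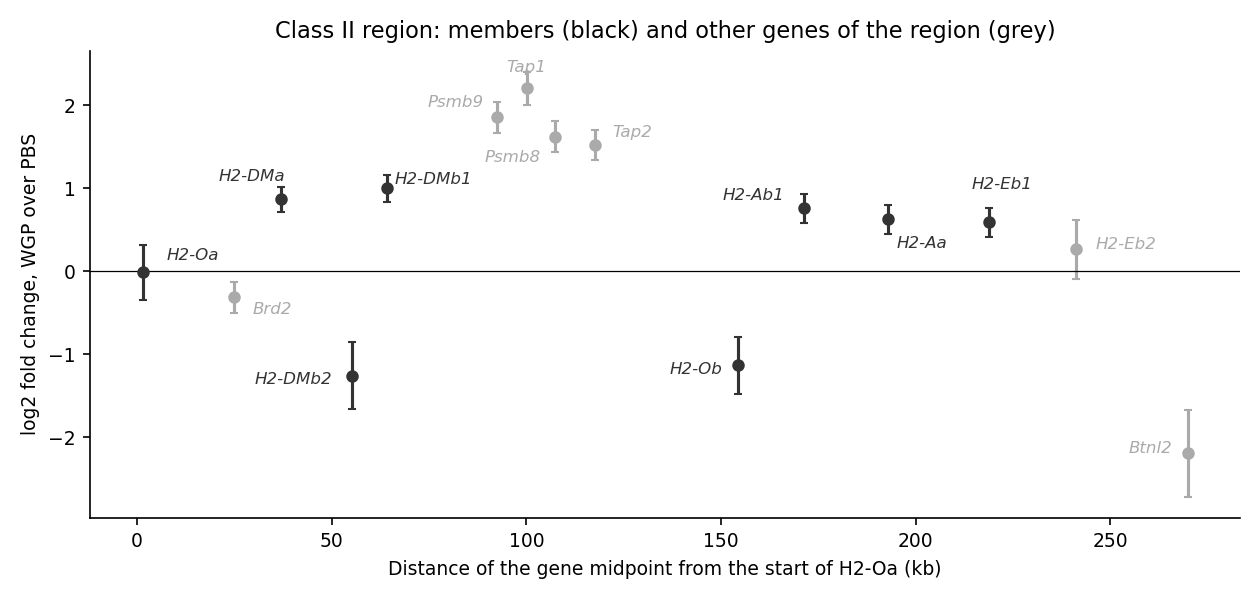
Log2 fold change of WGP over PBS by position in and beside the class II region, as the distance of each gene's midpoint from the start of H2-Oa in kb. Points are edgeR estimates and bars are 1 SE. H2-DMb2 at -1.26 stands beside H2-DMb1 at 1.00, and H2-Ob at -1.13 beside H2-Ab1 at 0.76, where the values of H2-DMb2 and H2-Ob did not pass.

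Promoter stretches are shown for H2-DMb2 and H2-Ob, which lay lower after WGP, and for H2-Aa and H2-Eb1, which lay higher. All 4 carry the Y box core, as do the other promoters of the class II genes searched. RefSeq promoter sequences (GRCm38.p6, from 250 bases before to 50 bases after the RefSeq start) were matched for 7 of the 10 genes and searched on both strands. The Y box core ATTGG, the letters that NF-Y binds, was found in all 7 and in 37.4% of 32851 promoters. The X box core AGNAACNG was found in H2-DMb1, H2-Eb1 and, on the reverse strand, H2-Oa, against 17.4% of all promoters, and the motifs do not overlap each other in the stretches shown. An X core followed on the same strand by a Y core after 10 to 40 bases was found in 2 of the 7, H2-DMb1 and H2-Eb1, and in 0.451% of all promoters. Of the interferon motifs, TTCNNNGAA was found in H2-DMb2 alone (8.30% of all promoters) and GAAANNGAA in none of the 7 (8.56%). Each stretch holds 105 bases, 5′ to 3′ on the strand of the gene, with matches to the X and Y cores in capitals (CCAAT is the Y core on the other strand):
H2-DMb2: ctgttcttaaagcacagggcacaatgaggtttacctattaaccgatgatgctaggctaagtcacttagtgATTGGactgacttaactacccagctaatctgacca
H2-Ob: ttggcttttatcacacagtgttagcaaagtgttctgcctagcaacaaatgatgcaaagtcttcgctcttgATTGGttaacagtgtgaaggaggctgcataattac
H2-Aa: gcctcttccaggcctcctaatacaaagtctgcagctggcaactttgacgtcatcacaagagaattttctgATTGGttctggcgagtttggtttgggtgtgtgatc
H2-Eb1: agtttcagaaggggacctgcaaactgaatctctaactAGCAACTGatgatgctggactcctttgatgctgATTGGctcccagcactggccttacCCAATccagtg

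These stretches lie at chr17:34145089-34145193 (H2-DMb2), chr17:34238778-34238882 (H2-Ob), chr17:34287837-34287941 (H2-Aa, minus strand) and chr17:34305738-34305842 (H2-Eb1). All lie before the RefSeq start and outside GENCODE exons. The RefSeq start of H2-DMb2 is downstream of its GENCODE start, so its stretch falls within the gene's GENCODE span. The Y core of H2-DMb1 lies at position -61 from the start and its X core at -95, and those of H2-Eb1 at -59 and -92. The stretch of H2-DMb2 and the matching one of H2-DMb1 (chr17:34153060-34153164), of which 93 bases lie in a GENCODE exon and which is not shown, were identical at 91 of 105 bases (86.7%). Between other pairs of stretches, with those of H2-Oa and H2-DMb1 included, the identity was 21.9% to 37.1%. H2-Aa, which rose, and H2-Ob, which did not, both hold the Y core and no match to the X core as spelled here. A match to these letters is a description and not a binding site.

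Among all genes tested with a mean of at least 50 CPM, those whose log2 CPM followed the mean of H2-Aa, H2-Ab1, H2-Eb1 and Cd74 most closely over the 6 libraries included Fam111a (Pearson r = 0.994), Sh3bp1 (0.991), Fyb (0.990) and Tifab (0.989). These values describe 6 libraries in 2 groups that differ, and no p is given. Of these, Tifab passed with a log2 fold change above 1 (1.17), Sh3bp1 (0.64) and Fyb (0.78) passed with smaller ones, and Fam111a (0.49, adjusted p = 0.0599 from edgeR) did not pass.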

How the data were processed

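RNA from sorted CD45+CD11b+ cells was sequenced as single reads of 75 bases in 1 run, from poly(A)-selected libraries. Per the labels and the study's methods, the authors aligned reads to mm10 (GRCm38.p6) with STAR 2.6 and counted them per gene with HTSeq 0.10.0. The deposited values are raw counts per Ensembl gene, without normalization. The strand setting and the annotation release are not given in the sources used here, so overlapping and antisense genes cannot be separated.

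Symbols and positions came from GENCODE vM21. A protein-coding gene was tested where its RLE-normalized counts reached 10 in sum (14429 genes), with edgeR 4.0.16 in R 4.3.3 (TMM, quasi-likelihood F test of WGP against PBS, Benjamini-Hochberg adjustment over all genes tested). SE is the log2 fold change over the square root of F, and levels are TMM-scaled CPM. Ratios had 0.5 counts added and were compared by exact two-sided permutation over libraries. The count test was also run on simulated data, with an outcome that is not reported here. Replicate numbers were not used as a block.

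The 10 genes and the lists were chosen with earlier results of these data known, so that counts and medians describe them and no test over a list was run. Named from the lists were all genes that passed in 4 pathway lists with up to 3 others of highest mean CPM, the gene of highest mean CPM of a marker list, and genes most like the class II chains. The values of some genes are not reported here. March1, Rfxap, Rfxank, Itgax, Cd209a, Cd8a, Ncr1, Btnl2 and the class I genes of the region were named after their values were seen. Alternatives were RLE size factors, library totals, DESeq2 1.42.0, limma-voom (limma 3.58.1), other filters, all features, the replicate block and each library left out. Covariates for Y-linked counts and for B cell markers, and exon unions as lengths, were added after seeing the data.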

Additional observations from a re-analysis of the deposited data

How the results depend on the processing

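Over the 16 alternative fits Ciita passed in 16, H2-DMa and H2-DMb1 in 15, H2-Ab1 in 13, H2-Aa in 9, H2-Eb1 in 6, H2-DMb2 and H2-Ob in 4 each, Cd74 in 2 and H2-Oa in 0. The 2 genes called higher became 1 under RLE size factors, library totals, DESeq2, at least 10 counts in every library and the B cell marker covariate, 4 under the Y-linked covariate, 0 at a log2 fold change of 2 or more in size, and 1 to 2 with a library left out. The 0 called lower, and the 0 that passed as lower, became 2 under DESeq2 and under the Y-linked covariate, 1 under library totals (H2-Ob) and 1 under the replicate block (H2-DMb2), and 0 to 2 with a library left out. The 5 that passed as higher became 1 (Ciita) under the B cell marker covariate, 7 under DESeq2 and the Y-linked covariate, 6 under limma-voom and with at least 10 counts in every library, 4 under library totals, with at least 1 count in any library and under the replicate block (where H2-Aa had an adjusted p of 0.0597), and 3 to 6 with a library left out. That covariate itself separates the groups without overlap, and the Y-linked covariate rests on PBS replicate 1 against the WGP libraries. The direction turned for H2-DMb2 (0.47) and H2-Ob (0.28) under the B cell marker covariate, and for H2-Oa there (1.05), under limma-voom (0.062) and the replicate block (0.065), and it lay between -0.22 and 0.46 with a library left out. Library totals moved the median log2 fold change of all genes from -0.05 to -0.16. Same-numbered libraries did not deviate together (r between -0.04 and 0.01), and the numbers were not taken as pairs. With 3 libraries a group these correlations cannot exclude a shared handling of same-numbered samples. Genes of class II transcription that passed as higher numbered 0 under the Y-linked covariate and 2 under library totals and the B cell marker covariate. Under the latter those of processing numbered 2, those of the gate 1 and trafficking genes passing as lower 2, processing genes passing as lower numbered 0 under the Y-linked covariate, and trafficking genes passing as higher 4 under DESeq2. No ratio turned. Leaving out a library gave the following ranges of log2 difference: -2.42 to -1.35 for H2-DMb2 per H2-DMb1 and -1.33 to -0.70 for H2-O per H2-DM genes. The causes were not tested. The lowest count of any of the 10 genes was 773, and the values rest on 3 libraries a group.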
